A study of Homo sapiens with 6 samples.

Results

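The acute phase, complement and antiprotease genes described here are 10 genes, SAA1, SAA2, CFB, C1R, C1S, C3, SERPINA3, LCN2, PI3 and SLPI, out of 20046 genes with a symbol of their own on the array. They were taken as every probe whose gene symbol on the platform is one of these names, 17 of 47323 probes. The genes were chosen by their log2 signals on these same 6 arrays, in all 6 conditions, so every value below is a description, and no test was run on them. HMLE, an immortalized line from human mammary epithelium, was profiled under 6 conditions, each on 1 Illumina HumanHT-12 v4 array: Snail with DHA, Snail, TGF-β with DHA, TGF-β, DHA, and the Vector control. Snail, a transcription factor that induces an epithelial-mesenchymal transition (EMT), was expressed stably from a retroviral vector. The label Vector is read as cells with the empty vector, while the paper's array section calls its control a vehicle control. The TGF-β and DHA titles do not say whether those cells carried the empty vector. In what follows, "Vector cells" takes in the cells of the DHA array. The labels give TGF-β, a growth factor that also induces EMT, at 1 ng/mL, while the culture methods give another concentration without naming the arrays. DHA, docosahexaenoic acid, was used at 20 μM and supplied as a complex with albumin. The time of treatment before RNA isolation, and whether cells without DHA received albumin, are not given in the sources used here. Each condition has 1 array, so no difference has a replicate check and the small number of arrays sets the precision.

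Acute phase proteins are secreted when tissue is injured or infected. The liver is their main source, and epithelia, the breast included, make many of them locally. Interleukin-1, TNF and interleukin-6 induce their genes through NF-κB, C/EBP factors and STAT3. Complement is a cascade of plasma proteases: C1r and C1s start the classical pathway, factor B carries the alternative pathway, and both converge on C3. Antiproteases such as elafin, encoded by PI3, and SLPI hold neutrophil elastase and related proteases in check at epithelial surfaces.

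Values are the authors' quantile normalized log2 signals, and a difference is the log2 signal of the first condition named minus that of the second. A probe was counted as above background where its signal exceeded the low-signal peak of its array at an estimated p under 0.05, which 37.5% to 44.3% of the probes on an array did. All 10 genes had at least 1 such probe, and 15 of the 17 probes were above background on at least 1 array. A gene with several probes is represented by the one of highest mean signal. If just 1 array of a pair had a gene above background, the difference is a bound, written "at least": the dim array then stands at its lowest detected signal, or at the probe's own value if that was higher. The epithelial markers named on the array averaged 7.83 with Snail and DHA and 8.40 with Snail, against 10.90 to 11.30 on the other 4 arrays, and the mesenchymal markers averaged 10.07 and 10.48, against 7.34 to 8.05. With TGF-β over Vector, 2 of 5 mesenchymal markers compared were at least 2-fold higher (1.13% of all genes) and 0 lower (0.837%). These were VIM at 1.78 and CDH2 at 1.10, and the median of the 5 was 0.98. The probe of SNAI1, which encodes Snail, was above background on none of the 6 arrays, those labelled Snail included. ANGPTL4, a gene induced by fatty acids, was 4.60 higher with DHA in Snail cells and 2.32 higher in TGF-β cells, but only 0.30 higher in Vector cells. CPT1A, also chosen as a check of DHA, differed by only 0.09 in Snail cells, 0.16 in TGF-β cells and 0.02 in Vector cells. SMAD7, chosen as a check of TGF-β, differed by -0.05 for TGF-β over Vector. Of 6 leukocyte markers named on the array, PTPRC, CD3E, ITGAM and ELANE were above background on no array, CD14 was on all 6, and the list averaged 6.18 to 6.43. The 5 hepatocyte markers averaged 6.25 to 6.50, and 4 of them were above background on at least 1 array, but 0 on all 6.

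Most of the 10 genes were lower in induced cells and in DHA-treated cells than in Vector cells. With TGF-β over Vector, 7 members were at least 2-fold lower and 0 higher, where 0.837% of the 12428 genes compared were lower and 1.13% higher by as much. With DHA over Vector 6 were lower and 0 higher, against 1.28% of all genes lower and 0.293% higher. With Snail over Vector 6 were lower, against 4.23% of all genes, and 2 were higher, against 4.05%. The median log2 difference over the members was -1.96 with TGF-β, -1.38 with DHA and -1.52 with Snail, where the medians of all genes compared lay between 0 and 0.02. These 3 comparisons share the Vector array, which held the highest value of 7 of the 10 genes, and the other 3 genes were highest on the Snail array. The share of all genes highest on either array was not counted, so nothing is read from these numbers. The Vector array also had the most probes above background, 44.3%. Among the 4 comparisons without the Vector array, Snail+DHA over Snail had 5 members at least 2-fold lower (2.28% of all genes) and 0 higher (1.29%). TGF-β+DHA over TGF-β had 3 lower (3.49%) and 2 higher (2.03%). Snail+DHA over DHA had 3 lower (5.23%) and 2 higher (4.32%), and TGF-β+DHA over DHA had 1 lower (1.85%) and 0 higher (1.83%). Since the genes were listed for their values on these arrays, nothing is read from the members' counts against these shares.

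**Figure D1:**
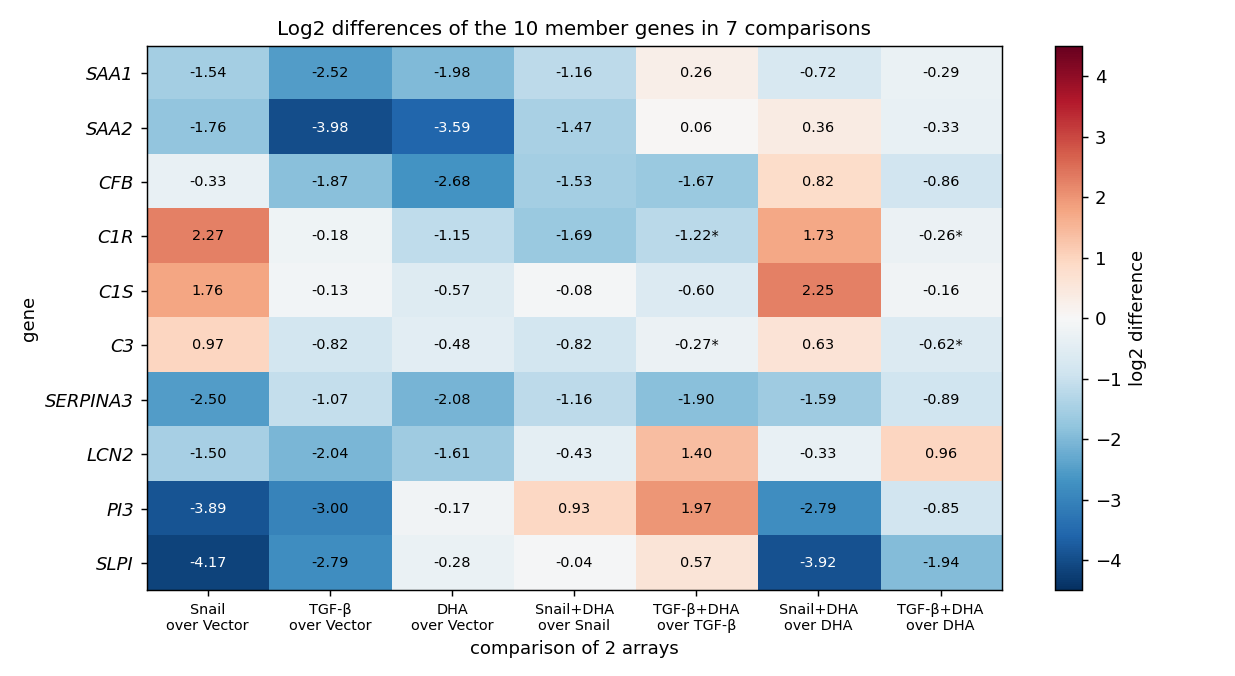
Log2 difference of each of the 10 genes (rows) in each of the 7 comparisons of 2 arrays (columns), with blue for lower and red for higher in the condition named first; an asterisk marks a bound. The SAA genes are blue in the 3 comparisons with Vector, C1R and C1S are red with Snail, and PI3 and SLPI are blue with either inducer.

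SAA1 and SAA2 encode serum amyloid A, a lipoprotein-bound acute phase protein, and lie next to each other on chromosome 11. SAA1 had log2 signals of 10.64 with Snail and DHA, 11.80 with Snail, 11.07 with TGF-β and DHA, 10.81 with TGF-β and 11.36 with DHA, against 13.34 with Vector. The Vector array stood alone at the top, 1.54 above the Snail array. Against Vector, SAA1 was 2.91-fold lower with Snail, 5.75-fold lower with TGF-β and 3.94-fold lower with DHA. Its other 2 probes were lower in these comparisons too, with log2 differences of -3.44 and -2.27 for TGF-β, -2.59 and -1.61 for DHA, and -2.48 and -1.30 for Snail.

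SAA2 read 7.63 with Snail and DHA, 9.09 with Snail, 6.93 with TGF-β and DHA, 6.87 with TGF-β and 7.27 with DHA, against 10.85 with Vector. Both TGF-β arrays and the DHA array lay within 1 log2 unit of the lowest signals above background, which were 6.37 to 6.49. Against Vector, SAA2 was 3.38-fold lower with Snail, 15.8-fold lower with TGF-β and lower by a log2 difference of -3.59 with DHA. Adding DHA to Snail cells went with a further 2.77-fold lower signal, whereas the 2 TGF-β arrays differed by only 0.06. The transcripts of SAA1 and SAA2 are close copies of each other, so each probe may take up signal from both genes. Their neighbour SAA4, which encodes the constitutive form of serum amyloid A, had log2 differences from Vector of -2.63 with Snail, -3.07 with TGF-β and -3.10 with DHA. A readthrough gene, SAA2-SAA4, spans both loci, and the array values do not separate it from SAA4.

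LCN2 encodes lipocalin 2, which binds bacterial iron carriers. It read 7.07 with Snail and DHA, 7.51 with Snail, 8.37 with TGF-β and DHA, 6.97 with TGF-β and 7.41 with DHA, against 9.01 with Vector. TGF-β gave the lowest value and TGF-β with DHA the highest after Vector. Against Vector, LCN2 was 2.84-fold lower with Snail, 4.13-fold lower with TGF-β and 3.05-fold lower with DHA, but it was 2.64-fold higher with TGF-β and DHA than with TGF-β alone.

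SERPINA3 encodes α1-antichymotrypsin, an acute phase inhibitor of cathepsin G and other chymotrypsin-like proteases. Its signals were 7.41 with Snail and DHA, 8.58 with Snail, 8.12 with TGF-β and DHA, 10.01 with TGF-β and 9.01 with DHA, against 11.08 with Vector. Every array with DHA lay below its partner without it. SERPINA3 was 3.72-fold lower with DHA in TGF-β cells, 2.24-fold lower in Snail cells and 4.22-fold lower in Vector cells. It was also 5.67-fold lower with Snail and 2.10-fold lower with TGF-β than with Vector, so that both inducers and DHA each went with a lower value.

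CFB, which encodes complement factor B, was lower on each array with DHA than on its partner without it. It read 8.44 with Snail and DHA, 9.97 with Snail, 6.76 with TGF-β and DHA, 8.43 with TGF-β and 7.62 with DHA, against 10.30 with Vector. The Snail and Vector arrays were only 0.33 apart, while the TGF-β array was 3.65-fold lower than Vector. Added DHA went with a value 2.88-fold lower in Snail cells, 3.19-fold lower in TGF-β cells and 6.41-fold lower in Vector cells.

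The genes of the C1 proteases were higher in Snail cells. C1R, next to C1S on chromosome 12, read 8.43 with Snail and DHA, 10.12 with Snail, 7.67 with TGF-β and 6.70 with DHA, against 7.85 with Vector, and was not above background with TGF-β and DHA. C1R was 4.83-fold higher with Snail than with Vector and 3.33-fold higher with Snail and DHA than with DHA, and its second detected probe gave log2 differences of 2.02 and 2.04. With DHA, C1R was 3.22-fold lower in Snail cells, at least 2.34-fold lower in TGF-β cells and 2.22-fold lower in Vector cells. The second probe differed by -0.98 in Snail cells, was also lower in Vector cells, and was not above background with TGF-β and DHA, and the other 2 probes of C1R were above background on no array.

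C1S read 9.03 with Snail and DHA, 9.10 with Snail, 6.61 with TGF-β and DHA, 7.22 with TGF-β and 6.77 with DHA, against 7.34 with Vector. Both Snail arrays lay above the other 4. The difference was 1.76 for Snail over Vector and 2.25 for Snail+DHA over DHA. A second probe, annotated to another C1S transcript, was above background on the 2 Snail arrays alone, at 7.10 with DHA and 6.65 without. C1S differed by only -0.08 with DHA in Snail cells, where that of C1R was -1.69.

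C3, the component on which the pathways converge, read 7.68 with Snail and DHA, 8.50 with Snail, 6.71 with TGF-β and 7.06 with DHA, against 7.53 with Vector, and was not above background with TGF-β and DHA. The Snail array was the highest, 0.97 above Vector and just short of 2-fold, and the difference for TGF-β over Vector was -0.82. C3 was lower on each DHA array than on its partner, with differences of -0.82 in Snail cells and -0.48 in Vector cells. In TGF-β cells it was at least 1.21-fold lower. Its second probe was above background on the Snail array only. Mesenchymal markers were higher on the same 2 Snail arrays on which C1R and C1S were high, as given above, and their part in these values was not tested.

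PI3 and SLPI, 2 inhibitors with a whey acidic protein domain encoded near each other on chromosome 20, were lower with either inducer and little different with DHA alone. PI3 read 9.24 with Snail and DHA, 8.31 with Snail, 11.17 with TGF-β and DHA, 9.20 with TGF-β and 12.03 with DHA, against 12.20 with Vector. Against Vector, PI3 was 14.8-fold lower with Snail and 7.98-fold lower with TGF-β. With DHA added, PI3 was 3.93-fold higher in TGF-β cells and 0.93 higher, short of 2-fold, in Snail cells, while in Vector cells it differed by -0.17.

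SLPI read 7.57 with Snail and DHA, 7.61 with Snail, 9.56 with TGF-β and DHA, 8.99 with TGF-β and 11.49 with DHA, against 11.78 with Vector. The arrays fell into 3 pairs by inducer, and within a pair the array with DHA differed by -0.04 in Snail cells, 0.57 in TGF-β cells and -0.28 in Vector cells. Against Vector, SLPI was 18.0-fold lower with Snail and 6.89-fold lower with TGF-β. It was the single member at least 2-fold lower in TGF-β+DHA over DHA, by 3.83-fold. Epithelial markers were lower on the Snail arrays too, with differences from Vector of at least -5.05 for CDH1 and -3.14 for KRT14, while on the TGF-β array the 6 epithelial markers had a median difference of -0.09, between -0.46 for KRT18 and 0.85 for KRT14. Their part in the values of PI3 and SLPI was not tested.

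**Figure D2:**
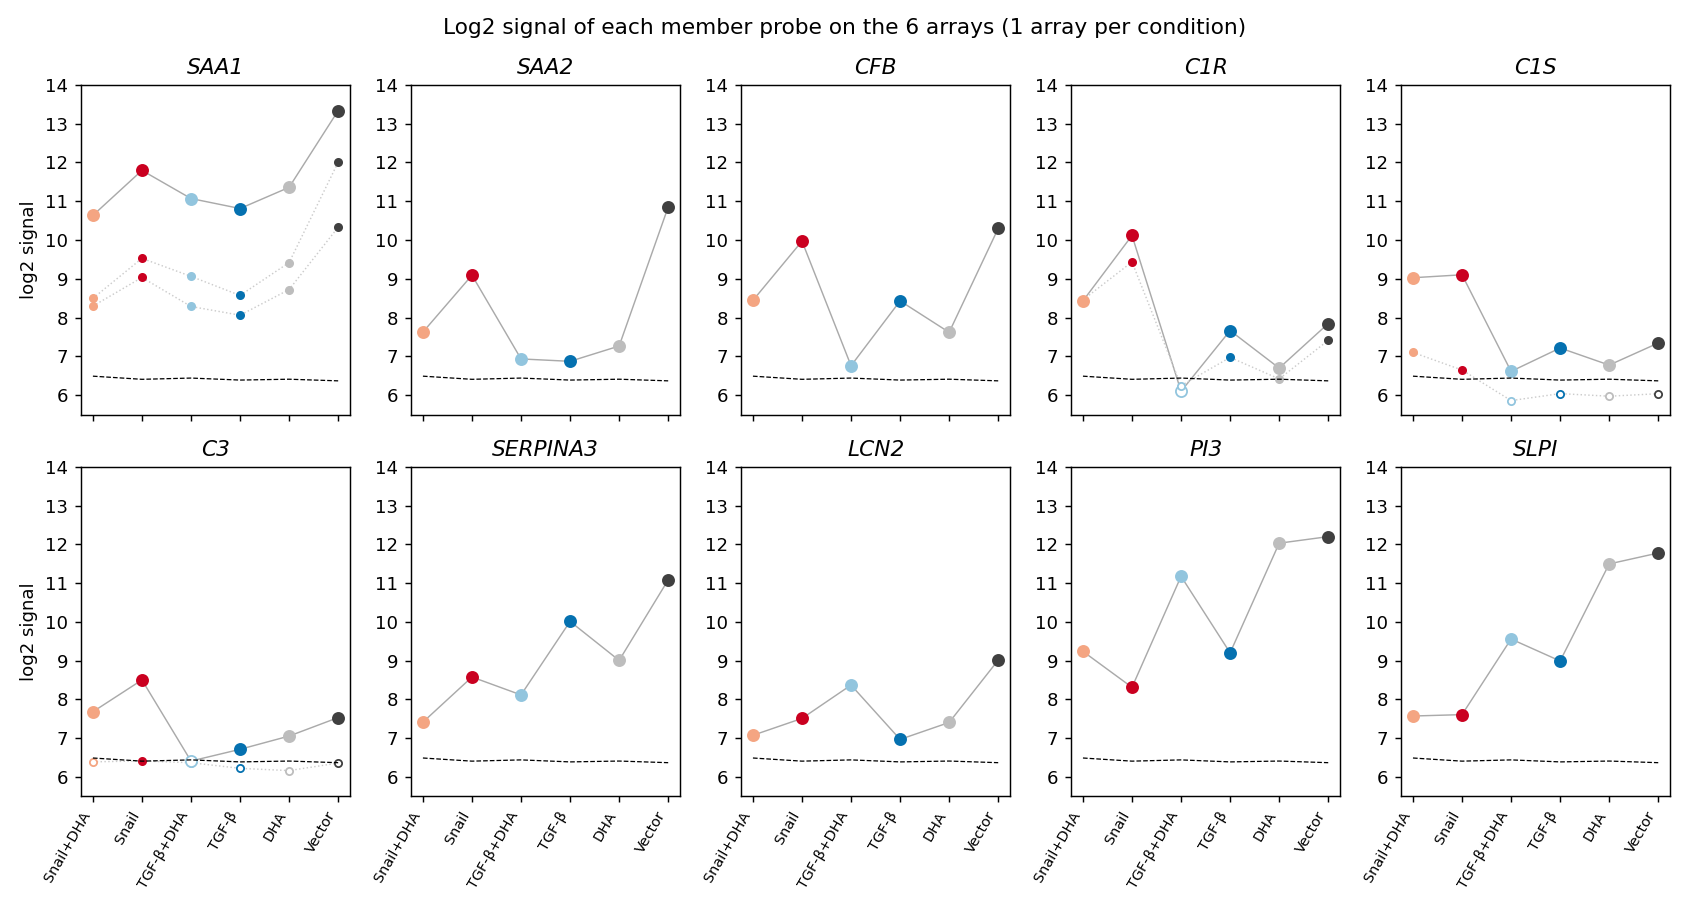
Log2 signal (vertical axis) of every member probe that was above background on at least 1 array, on the 6 arrays (horizontal axis, 1 point each); large points are the probe used for the gene, small points its other probes, open points are not above background, and the dashed line is the lowest signal above background. Lines join the values of 1 probe and carry no order, and heights of different probes are not comparable; the Vector point is the highest for SAA1, SAA2, CFB, SERPINA3, LCN2, PI3 and SLPI.

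The inducer differences of SAA1, SAA2 and LCN2 were smaller when both arrays had DHA. So were those of PI3 with either inducer, CFB with TGF-β and SERPINA3 with Snail, and the difference of SLPI with Snail was nearly the same. The difference of SAA2 was -0.33 for TGF-β+DHA over DHA and -3.98 for TGF-β over Vector, and 0.36 and -1.76 for the same comparisons with Snail. That of SAA1 was -0.29 with TGF-β among DHA arrays and -2.52 without DHA, and that of LCN2 had opposite signs, 0.96 and -2.04. The difference of SLPI was -3.92 for Snail+DHA over DHA and -4.17 for Snail over Vector, and that of PI3 was -2.79 and -3.89. With TGF-β, SLPI stood at -1.94 among DHA arrays and at -2.79 without DHA, and PI3 was 1.81-fold lower among DHA arrays and 7.98-fold lower without DHA. The difference of CFB with TGF-β was -0.86 among DHA arrays and -1.87 without DHA, and that of SERPINA3 with Snail was -1.59 and -2.50. With Snail, CFB had opposite signs, 0.82 among DHA arrays and -0.33 without DHA. C1R and C1S were higher with Snail in both settings. The first comparison of each pair rests on the DHA array and the second on the Vector array, and no replicate of either was measured, so a high Vector array and an effect of DHA cannot be told apart.

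**Figure D3:**
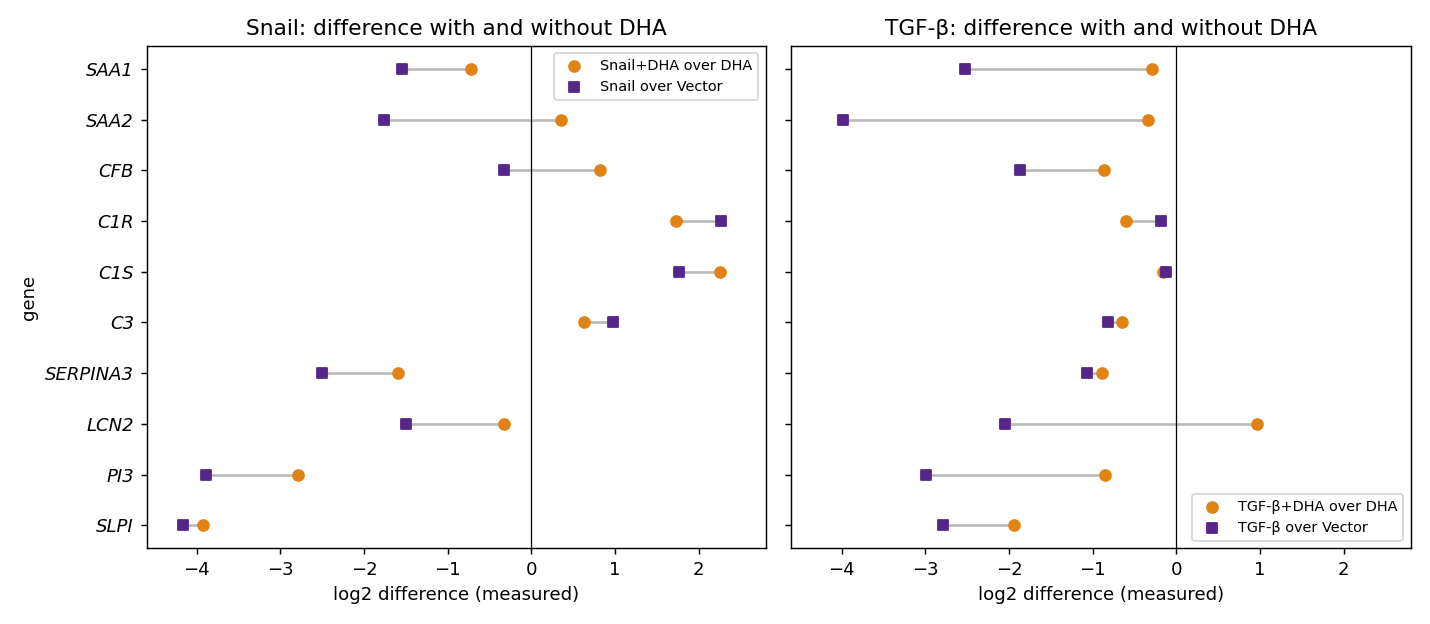
Measured log2 difference (horizontal axis) of each gene with Snail (left) and with TGF-β (right), once between arrays with DHA (circles) and once between arrays without (squares). Circles of SAA1, SAA2 and LCN2 lie nearer to 0 than their squares in both panels, while SLPI stays at -3.92 or below with Snail.

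How many of all genes were lower with DHA in all 3 cell backgrounds was not counted, so nothing is read from the members' number. By differences of any size, 5 members were lower with DHA in all 3: CFB, C1R, C1S, C3 and SERPINA3. The differences of C1S and C3 were below 2-fold in each, and the -0.08 of C1S in Snail cells has no settled sign, since it was 0.19 with the mean of its probes and 0.45 for its second probe. For SAA1 and SAA2 the DHA difference was negative in Snail cells (-1.16 and -1.47) and Vector cells (-1.98 and -3.59), and near 0 in TGF-β cells (0.26 and 0.06), where both genes were already low without DHA. PI3 was higher with DHA in both induced backgrounds and LCN2 in TGF-β cells. The DHA difference in TGF-β cells exceeded that in Vector cells by 3.65 for SAA2, 3.01 for LCN2, 2.24 for SAA1 and 2.14 for PI3, values that rest on 4 arrays each and were not tested. They equal the gaps between the TGF-β differences with and without DHA given above, so they are no separate observation.

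Promoter sequence was matched for 4 members in RefSeq (GRCh38.p14). The 250 bases before the start of 3 of them are shown. LCN2 was picked as highest with Vector, C1R as highest with Snail, and CFB as lower wherever DHA was added. These traits overlap, since CFB was also highest with Vector and C1R was also lower wherever DHA was added. Capitals mark matches on either strand to the kB consensus of NF-κB (by name), the C/EBP motif TTGCNNAA, the STAT motif TTCNNNGAA or the AP-1 motif TGANTCA.
LCN2, chr9:128149203-128149452, plus strand: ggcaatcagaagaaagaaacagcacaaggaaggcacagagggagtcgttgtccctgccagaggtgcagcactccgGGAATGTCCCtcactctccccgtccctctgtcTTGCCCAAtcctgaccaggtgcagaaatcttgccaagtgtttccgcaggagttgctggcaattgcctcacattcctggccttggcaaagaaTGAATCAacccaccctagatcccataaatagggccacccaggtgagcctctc
C1R, chr12:7092446-7092695, minus strand: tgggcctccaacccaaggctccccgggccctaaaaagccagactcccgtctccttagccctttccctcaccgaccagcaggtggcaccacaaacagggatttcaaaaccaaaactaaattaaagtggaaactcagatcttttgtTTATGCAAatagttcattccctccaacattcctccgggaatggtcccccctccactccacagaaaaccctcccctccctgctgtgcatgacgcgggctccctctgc
CFB, chr6:31945845-31946094, plus strand: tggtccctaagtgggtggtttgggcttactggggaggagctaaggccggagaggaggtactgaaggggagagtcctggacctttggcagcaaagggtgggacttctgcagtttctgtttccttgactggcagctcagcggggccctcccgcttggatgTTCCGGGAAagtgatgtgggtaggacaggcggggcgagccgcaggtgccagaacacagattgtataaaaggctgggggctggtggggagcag
The LCN2 window held a kB match from -175 to -166, a C/EBP match from -143 to -136 and an AP-1 match from -52 to -46, counted from the start of transcription. The C1R window held a C/EBP match from -106 to -99 and the CFB window a STAT match from -92 to -84. SERPINA3, also matched, held none of the 4 motifs. Of 35116 promoters of this length, 5.21% held the kB consensus, 9.05% the C/EBP motif, 6.57% the STAT motif and 6.57% the AP-1 motif. A match describes letters in this window and no binding was measured.

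Other genes of the same pathways were mostly not above background or differed less. The gene lists here and below were chosen with earlier results of these data known, so nothing is read from their counts. Of 33 other complement genes named on the array, 15 were above background on some array. With Snail over Vector, 0 of 13 compared were at least 2-fold lower (4.23% of all genes), with a list median of -0.0016, and 4 were higher (4.05%). These were CD59, which blocks the membrane attack complex, at 1.29, CFD, the protease that activates factor B, at 1.15, SERPING1, the C1 inhibitor, at least 1.10, and C1RL, the neighbour of C1R, at 1.01. With TGF-β or DHA over Vector none of the 13 genes was 2-fold different. C1RL also had a difference of -1.30 with DHA in Snail cells. C1QB, C1QC and C4B were above background on no array, C1QA on 4 and C2 and C4A on 2 each, none of them above 6.61.

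Of 22 other acute phase genes named, 8 were above background on some array. Of liver-derived ones, CRP, HP, ORM1 and A2M were on none, while ALB was on 5, at 6.97 with Snail. FGA was above background on 3 arrays, FGB on 2, and TTR and AHSG on 1 each. SAA4 was lower than Vector with Snail, TGF-β and DHA, as given above, and SERPINA1, which encodes α1-antitrypsin, was 2.10-fold lower with Snail. PTX3 went the other way, above background on the 2 Snail arrays alone, at 7.54 with DHA and 7.27 without. It was at least 0.90 higher with Snail than with Vector, and at least 2.19-fold higher for Snail+DHA over DHA. The list's median was 0 with Snail and 0.01 with TGF-β. Among 23 other secreted inhibitor and antimicrobial genes, 6 of 16 compared were at least 2-fold lower with Snail than with Vector (4.23% of all genes) and 1 higher (4.05%). The cystatin gene CSTA had a difference of -2.14, CST6 of -2.64 and SPINT2, which encodes an inhibitor of membrane serine proteases, of -2.91, whereas CST3 was 1.15 higher. WFDC2, another whey acidic protein gene, was above background on the Vector array alone, at 8.04, and was at least 3.09-fold lower with Snail, 3.13-fold with TGF-β and 3.09-fold with DHA. RNASE7, an antimicrobial ribonuclease gene, was 1.74 higher with DHA in TGF-β cells, where PI3 and LCN2 were higher too.

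Several genes of the inducing cytokines were also lower than in Vector cells, in comparisons that share the Vector array. Of 30 cytokine, receptor and transcription factor genes compared, 6 were at least 2-fold lower (4.23% of all genes) and 2 higher (4.05%) with Snail over Vector. With TGF-β 5 of 30 were lower (0.837%), and with DHA 6 of 29 (1.28%). The list medians were -0.34 with Snail, -0.24 with TGF-β and -0.26 with DHA. IL1B had differences from Vector of -2.09 with Snail, -1.32 with TGF-β and -1.49 with DHA. TNF, above background with TGF-β and DHA at 6.60, with DHA at 6.72 and with Vector at 8.05, was at least 3.12-fold lower with Snail, at least 3.16-fold lower with TGF-β and 2.50-fold lower with DHA. IL1A had differences of -2.52 with Snail, -0.77 with TGF-β and -0.49 with DHA. With DHA added to induced cells both interleukin-1 genes were higher, short of 2-fold. IL1A differed by 0.64 in Snail cells and 0.98 in TGF-β cells, and IL1B by 0.67 and 0.71. The NF-κB target genes TNFAIP3 and NFKBIZ, which encode regulators of that pathway, had differences of -1.67 and -1.83 with TGF-β and -1.63 and -1.30 with DHA. With Snail these were -1.21 and -0.37. IL1R1, the interleukin-1 receptor gene, was at least 1.48 higher with Snail. IL6ST was 1.01 higher with Snail and had differences of -0.66 with TGF-β and -0.45 with DHA. The interleukin-6 gene IL6 was 0.50 higher with Snail, short of 2-fold, and was not above background with TGF-β or with DHA.

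CEBPD and STAT3, named after their values were seen, were lower with DHA in induced cells but not in Vector cells. CEBPD read 10.06 with Snail and DHA against 11.70 with Snail, 10.33 with TGF-β and DHA against 11.84 with TGF-β, and 11.84 with DHA against 11.83 with Vector. STAT3 differed with DHA by -1.05 in Snail cells, -1.69 in TGF-β cells and -0.08 in Vector cells. C1R was lower with DHA in all 3 backgrounds, and whether any of these values bear on each other was not tested.

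Among 17 receptors and partners of the members, 8 were above background on some array. KLK7, a skin protease that SLPI inhibits, had differences from Vector of at least -4.41 with Snail, -3.11 with TGF-β and -0.68 with DHA, where SLPI had -4.17, -2.79 and -0.28. FPR2, a receptor of serum amyloid A, was above background on no array, while the related FPR1 was at least 3.17-fold higher with Snail and DHA than with DHA. MMP9, whose protein binds lipocalin 2, was not above background with Snail and DHA, with Snail or with DHA, against 7.65 with Vector, and it read 8.13 with TGF-β and DHA, 0.14 above TGF-β alone.

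**Figure D4:**
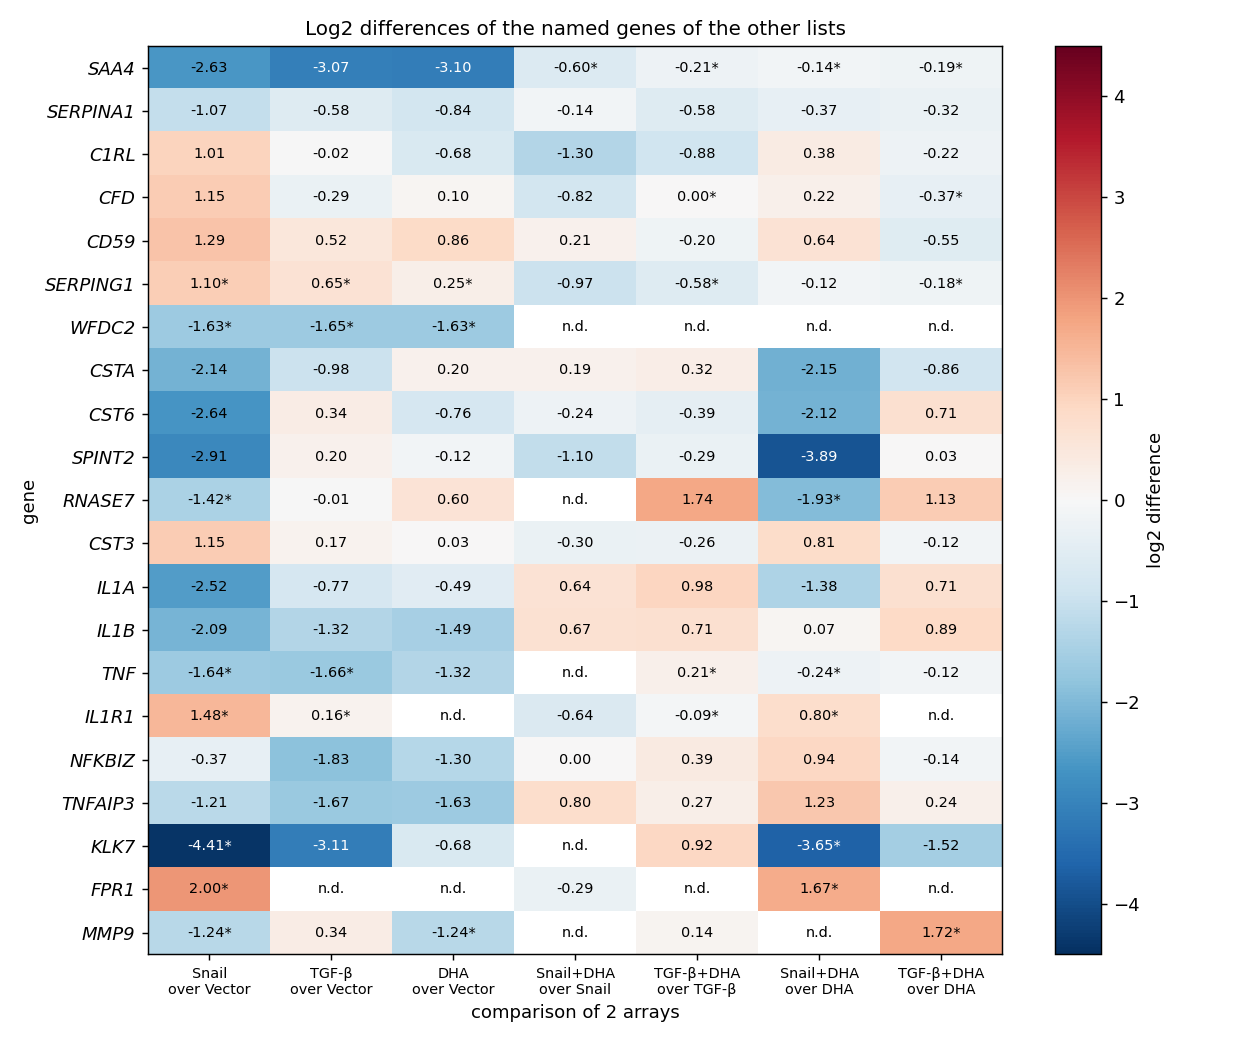
Log2 difference of the named genes of the other lists (rows) in the 7 comparisons (columns), coloured as for the members; an asterisk marks a bound and n.d. a gene above background on neither array. SAA4, WFDC2, TNF and TNFAIP3 are blue in the 3 comparisons with Vector, and KLK7 is blue with both inducers.

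The members were compared in pairs by the likeness of their profiles, measured as the root mean square difference of centred log2 values over the 6 arrays. The closest pairs were C1S and C3 (0.55), SAA1 and LCN2 (0.55), PI3 and SLPI (0.57) and C1R and C1S (0.58), and the farthest was C1R and SLPI (2.65). Of 3159 other genes that spanned at least 1 log2 unit, the 10 closest to the mean profile of the members were WFDC2 (0.24), PLAAT4, PRDM1, MUC16, PSMB8, PDZK1IP1, TRIM22, B2M, SPTSSA and NFKBIA (0.37). Among them PSMB8 encodes a subunit of the immunoproteasome and B2M the light chain of MHC class I. WFDC2 was above background on 1 array, PDZK1IP1 on 2, MUC16 on 3 and PLAAT4 on 5, so their likeness rests partly on background values. For single members, the closest genes were WFDC2 for SAA1, SAA4 for SAA2, the immunoproteasome gene PSMB9 for CFB, the matrix gene FBLN1 for C1R, RASIP1 for C1S and CARD16 for C3. They were LEMD1 for SERPINA3, CYB5A for LCN2, the cornified envelope gene SPRR1A for PI3 and KLK7 for SLPI. Here too RASIP1 was above background on 2 arrays, LEMD1 on 3, and SAA4, CARD16 and KLK7 on 4.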

How the data were processed

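RNA of 6 HMLE conditions was hybridized to 1 array each. The authors read the arrays with the IlluminaExpressionFileCreator module of GenePattern and quantile normalized them, and the deposited log2 values were used as they are. The base of their logarithm is inferred from their range. The deposited intensity values reach past a 16-bit scanner, and their natural logarithm rises with the log2 values at a slope of 0.962 to 1.04, so each was read as e raised to a log2 signal, and 2 raised to its natural logarithm gave the signal back. Restored signals gave the detection estimate (the peak of low signals and the spread below it) and the alternatives with normexp (limma 3.58.1, R 4.3.3). The module's background setting was not given in the sources used here.

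Of 47323 probes, 30113 have 1 gene symbol in the platform's table, 8 several and 17202 none. The genes kept, 13543, had a probe above background somewhere. Arrays were compared in 7 pairs, with a 2-fold difference as the call and no test. The members and lists were chosen with earlier results of these data known. Genes of the other lists were named where at least 2-fold different from Vector, at most 6 per list by size, with genes of a list at background. Other list genes were added after their values were seen, among them IL6, IL6ST, PTX3 and ALB. The genes closest to the mean profile (10) and to each member (3) were found by rule, of which the closest per member is given. Alternatives were other background corrections, scaling, probe choice, detection limit and fold.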

Additional observations from a re-analysis of the deposited data

Results flagged for a closer look

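LCN2 differed in opposite directions with DHA depending on the cells, by at least 2-fold each way. It was 1.40 higher on the log2 scale with TGF-β and DHA than with TGF-β, at 8.37 against 6.97, and the difference was -1.61 for DHA over Vector, at 7.41 against 9.01. In Snail cells it was -0.43. The opposite directions rest on 1 array per condition, and the difference between them was not tested.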

How the results depend on the processing

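Of the 490 differences of single members under the 7 alternatives run, those at least 2-fold kept their sign, and 2 smaller ones changed it: SAA2 for TGF-β+DHA over TGF-β (-0.09 with common-median scaling) and C1S for Snail+DHA over Snail (0.19 with the mean of probes). Of all 490, 481 kept their side of 2-fold, 7 passed it and 2 no longer did. The 2 were SAA1 for Snail+DHA over Snail (-0.98) and C1R for TGF-β+DHA over TGF-β (at least -0.88), both with the mean of probes. Each of the 49 medians stayed within 1.5-fold of its main value, but that of TGF-β+DHA over TGF-β ranged from -0.22 to 0.02 and that of Snail+DHA over DHA from -0.04 to 0.02, so neither has a direction. Of 112 counts of members, 104 stayed within 1.5 times. With a normexp offset of 16, Snail+DHA over Snail had 1 member higher in place of 0 (PI3, 1.01), and TGF-β+DHA over DHA had 2 lower in place of 1 and 1 higher in place of 0 (LCN2, 1.15). Common-median scaling also gave 1 higher there (LCN2, 1.08). At 1.5-fold, the counts were 1 higher for Snail+DHA over Snail, 4 higher in place of 2 for Snail+DHA over DHA, and 5 lower and 1 higher for TGF-β+DHA over DHA. The cause was not tested. Common-median scaling moved the median of all genes to -0.18 for DHA over Vector, -0.14 for Snail+DHA over Snail and -0.12 for TGF-β+DHA over TGF-β, and the counts of all genes lower and higher to 311 and 15, 469 and 65, and 788 and 122, in place of 157 and 36, 266 and 150, and 422 and 245. For Snail over Vector they were 714 and 400 in place of 529 and 506, and for TGF-β+DHA over DHA 163 and 296 in place of 219 and 217. With the offset of 16, the counts lower and higher were 159 and 217 for TGF-β over Vector, in place of 104 and 140, 228 and 65 for DHA over Vector, and 405 and 228 for Snail+DHA over Snail. At 1.5-fold they were 1299 and 1296 for Snail over Vector, 523 and 865 for TGF-β over Vector, 470 and 330 for DHA over Vector, 885 and 735 for Snail+DHA over Snail, 1376 and 961 for TGF-β+DHA over TGF-β, 1364 and 1423 for Snail+DHA over DHA, in place of 616 and 509, and 692 and 663 for TGF-β+DHA over DHA. No paired analysis was possible because each condition has 1 array and the labels give no replicate numbers. C1R and C3 were not above background with TGF-β and DHA, which leaves only bounds there.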
